A study of Mus musculus with 8 samples.

Results

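The nuclear genes for subunits of mitochondrial complex I were examined in embryonic mouse brain and spinal cord. They were chosen by name, as every symbol that consists of Nduf, one of the letters a, b, c, s or v, and a number. This gave 36 genes of the 36317 distinct symbols in the table, and all 36 passed the filter on low values and were tested. RNA had been sequenced from 8 libraries in 4 groups of 2: forebrain of wt embryos at embryonic day 13.5 (E13.5), spinal cord of wt embryos at E13.5, forebrain of wt embryos at E15.5, and forebrain of EED-cKO embryos at E15.5. In the EED-cKO, deletion of Eed depends on Sox1-Cre, which is active in neural progenitors and their descendants, so blood, vessel and connective tissue cells in the dissected piece keep the gene. EED is the subunit of Polycomb repressive complex 2 that reads and helps spread the repressive mark on lysine 27 of histone H3. The labels give the wt embryos no allele or Cre and do not say whether the libraries of a group came from separate embryos, so p-values measure the spread between these samples only. Each library is a bulk sample, in which fewer cells of a type and less RNA per cell cannot be told apart.

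Complex I (NADH:ubiquinone oxidoreductase) takes electrons from NADH, passes them along a flavin and a chain of iron-sulfur clusters to ubiquinone, and pumps protons across the inner mitochondrial membrane. Its matrix arm carries the redox centres and its membrane arm carries the pumps. The catalytic core of the matrix arm comes from nuclear Ndufs and Ndufv genes, the core of the membrane arm is encoded by mitochondrial DNA, and a shell of nuclear accessory subunits surrounds both. Neurons depend strongly on oxidative phosphorylation, and inherited loss of complex I subunits is a cause of Leigh syndrome, a disease of the developing brain.

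The 36 genes lie on 15 chromosomes, and many share a start region or a stretch of DNA with another gene. A protein-coding gene on the opposite strand started within 1000 bases, head to head, for 9 of the 36 (25%), against 9.41% of 13981 tested protein-coding genes (GENCODE M21, GRCm38). An opposite-strand protein-coding gene overlapped 12 of the 36 (33.3%), against 20.0%. Because the reads carried no strand, reads from such a pair cannot be told apart where they overlap. This holds for Ndufa2 with Tmco6, Ndufs1 with Eef1b2 and Ndufs3 with Kbtbd4, among others. Several short subunit genes also have near-identical processed copies elsewhere in the genome, and how reads shared with such copies were counted is not given in the sources used here.

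Start regions were available from RefSeq (GRCm38.p6, 250 bases before to 50 bases after the start) for 32 of the 36 genes. They were searched on both strands for AAGATGGCG, a core of sites bound by YY1, and GCGCATGC, a core of sites bound by NRF1, both known regulators of respiratory chain genes. AAGATGGCG was present in 5 of the 32 (15.6%), against 1.64% of 27025 genes and 3.06% of the tested genes with a start region. In all 5 it lay between 22 and 43 bases downstream of the start, on the gene's own strand, and its ATG was the annotated start codon. The 5 are shown because they share both the motif and its place, with the motif in capitals, 5′ to 3′ on the gene's strand.
Ndufc1: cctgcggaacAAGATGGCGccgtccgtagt
Ndufa9: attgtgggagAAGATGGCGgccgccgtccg
Ndufs7: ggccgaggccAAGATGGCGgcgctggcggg
Ndufs6: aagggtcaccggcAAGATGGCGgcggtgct
Ndufs4: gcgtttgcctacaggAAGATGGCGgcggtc
The Ndufc1 window lies at chr3:51408914-51408943 on the minus strand and that of Ndufa9 at chr6:126849096-126849125 on the minus strand. The Ndufs7 window lies at chr10:80249463-80249492 on the plus strand. Those of Ndufs6 (chr13:73328433-73328462) and Ndufs4 (chr13:114388045-114388074) are on the minus strand.

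GCGCATGC, or its complement read on the gene's strand, was present in 3 of the 32 start regions (9.38%), against 3.05% of all genes and 5.32% of tested genes. These lay upstream of the start, and are shown to set them beside the first group.
Ndufa8: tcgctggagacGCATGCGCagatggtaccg
Ndufa6: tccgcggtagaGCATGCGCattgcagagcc
Ndufa11: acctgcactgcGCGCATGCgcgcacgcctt
The windows are chr2:36049328-36049357 (minus strand), chr15:82354356-82354385 (minus strand) and chr17:56717691-56717720 (plus strand). Another motif, CCGGAAG, which resembles sites of ETS factors such as GABPA and overlaps neither of the others, was found in 4 of the 32 (12.5%), against 9.93% of all genes and 17.3% of tested genes. A match describes letters and does not show that a factor was bound.

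Levels are given as RPKM, reads scaled to gene length and to the mapped reads of the library, which can be compared between genes within a library. Read numbers per library are not given in the values, so the counting error of each value is unknown. E13.5 and E15.5 were not compared, because the values of the ages were made differently. The gene names had first to be put back beside the E15.5 values: no complex I gene stood in the same row under the deposited and the restored order, and the shifts were 391 to 404 rows. In the restored order the 36 genes of wt forebrain correlated between the ages with r = 0.685, against 0.254 as deposited (a description across genes), and the number below 1 RPKM in any E15.5 library was 0 rather than 22. Every E15.5 value below rests on that order.

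The labels were checked on marker genes. Eed measured 25.8 and 27.9 RPKM in wt and 10 and 10.6 in EED-cKO at E15.5, a log2 change of -1.30 (SE 0.085, limma adjusted p = 8.65e-05). Spinal cord markers (6 Hox genes) summed to 956.1 and 1148 RPKM in spinal cord and to at most 0.2 in wt forebrain. In the libraries labelled EED-cKO forebrain they summed to 41.9 and 46.7. Forebrain markers (Emx1, Emx2, Neurod6, Lhx2 and Dlx2) summed to 100.9 and 119.9 RPKM there, against 596.1 and 662.7 in wt, and 4 of the 5 fell. The wt E15.5 libraries stood apart from each other in the genes studied, as described next.

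In the wt forebrain at E15.5, the nuclear complex I genes differed together between the 2 libraries. In 35 of 36 genes replicate 2 was higher than replicate 1, with a median difference of 0.33 on the log2(RPKM + 1) scale, while the median over all 17022 tested genes was -0.03. The exception was Ndufs1, the largest core subunit, with 48.6 and 47.6 RPKM. In the other groups the median difference of the 36 genes was -0.01 (wt forebrain, E13.5), 0.04 (spinal cord) and -0.04 (EED-cKO). The nuclear subunits of complexes II to V did the same in wt at E15.5, with 37 of 38 higher in replicate 2 and a median of 0.30. Of the 7 subunits encoded by mitochondrial DNA, 6 were lower in replicate 2, with a median of -0.22. Summed over the 36 genes, wt replicates 1 and 2 held 5588.3 and 6994.1 RPKM and the EED-cKO libraries 5994.9 and 5889.8, so both knockout sums fell between the wt sums.

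**Figure D1:**
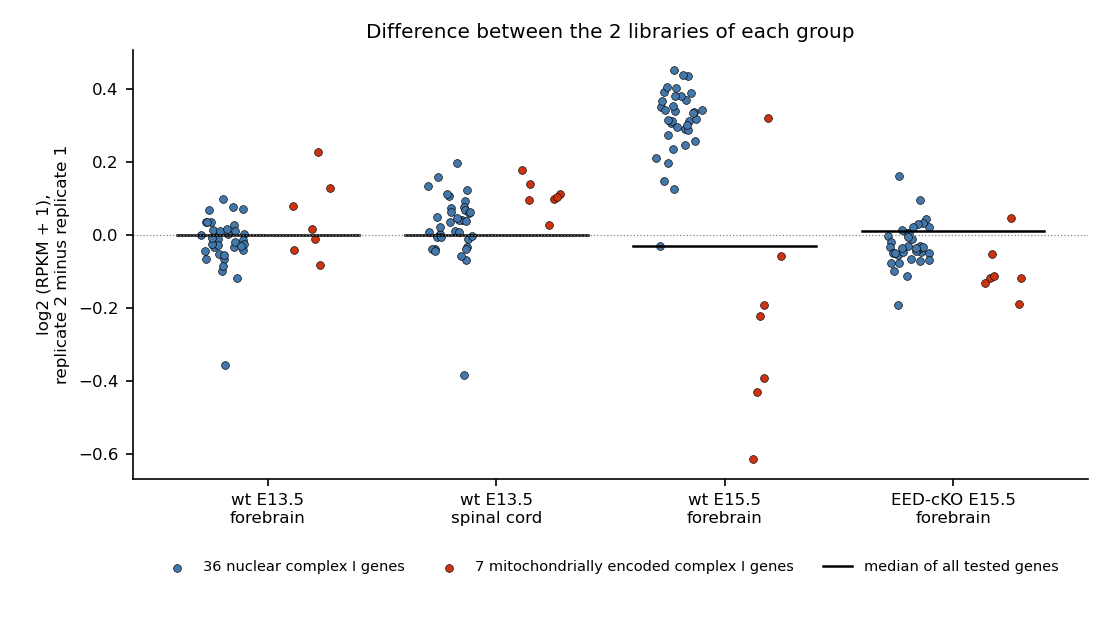
Difference between replicate 2 and replicate 1 within each group, on the log2(RPKM + 1) scale, for the 36 nuclear (blue) and 7 mitochondrially encoded (red) complex I genes. Each point is 1 gene, and the black line is the median of all tested genes. In wt forebrain at E15.5 the nuclear genes sit around 0.33 and most mitochondrially encoded genes below 0, while the nuclear genes of the other groups sit near 0.

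The same wt libraries also differed by transcript length. Across the 13957 tested genes with an annotated length, the median of replicate 2 minus replicate 1 was 0.11 for transcripts up to 800 bases and 0.11 from there to 1500 bases. It was 0.00 up to 3000 bases, -0.17 up to 6000 bases and -0.35 above that, while the medians of these classes in the other 3 groups lay between -0.01 and 0.08. Length here is the median over a gene's annotated protein-coding transcripts, which need not be the length of the transcript expressed. By this measure complex I genes are short: 21 of the 36 had up to 800 bases and 14 up to 1500. The highest median was that of Ndufb2 with 2413 bases, and Ndufs1, the exception above, was placed at 651 bases. Because Ndufs1 encodes the largest core subunit, 651 bases is too short for its full-length transcript. Its length class is therefore not reliable. Within the class up to 800 bases the complex I genes differed by 0.34, against 0.11 for all genes of that length. The part of transcript length in the differences of complex I genes was not tested further.

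Within a group, the highest of the 36 genes was 9.21 to 13.7 times the lowest. In wt forebrain at E13.5, group means ran from 14.55 RPKM (Ndufa11, an accessory subunit of the membrane arm) to 181.8 (Ndufa4), with a median of 69.22. In spinal cord they ran from 16.65 (Ndufa11) to 228.3 (Ndufa4), with a median of 67.67. At E15.5, wt forebrain ran from 48.1 (Ndufs1) to 442.9 (Ndufa4) and EED-cKO forebrain from 47.3 (Ndufb4) to 452.4 (Ndufa4), with medians of 166.2 and 157.4. Ndufa4, named as a complex I subunit but now counted with complex IV, was the highest in all 4 groups. The order of the genes was close between the groups of an age: across the 36 genes, log2 levels correlated with r = 0.968 between the E13.5 tissues and 0.98 between genotypes, a description of genes that share libraries and length scaling.

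**Figure D2:**
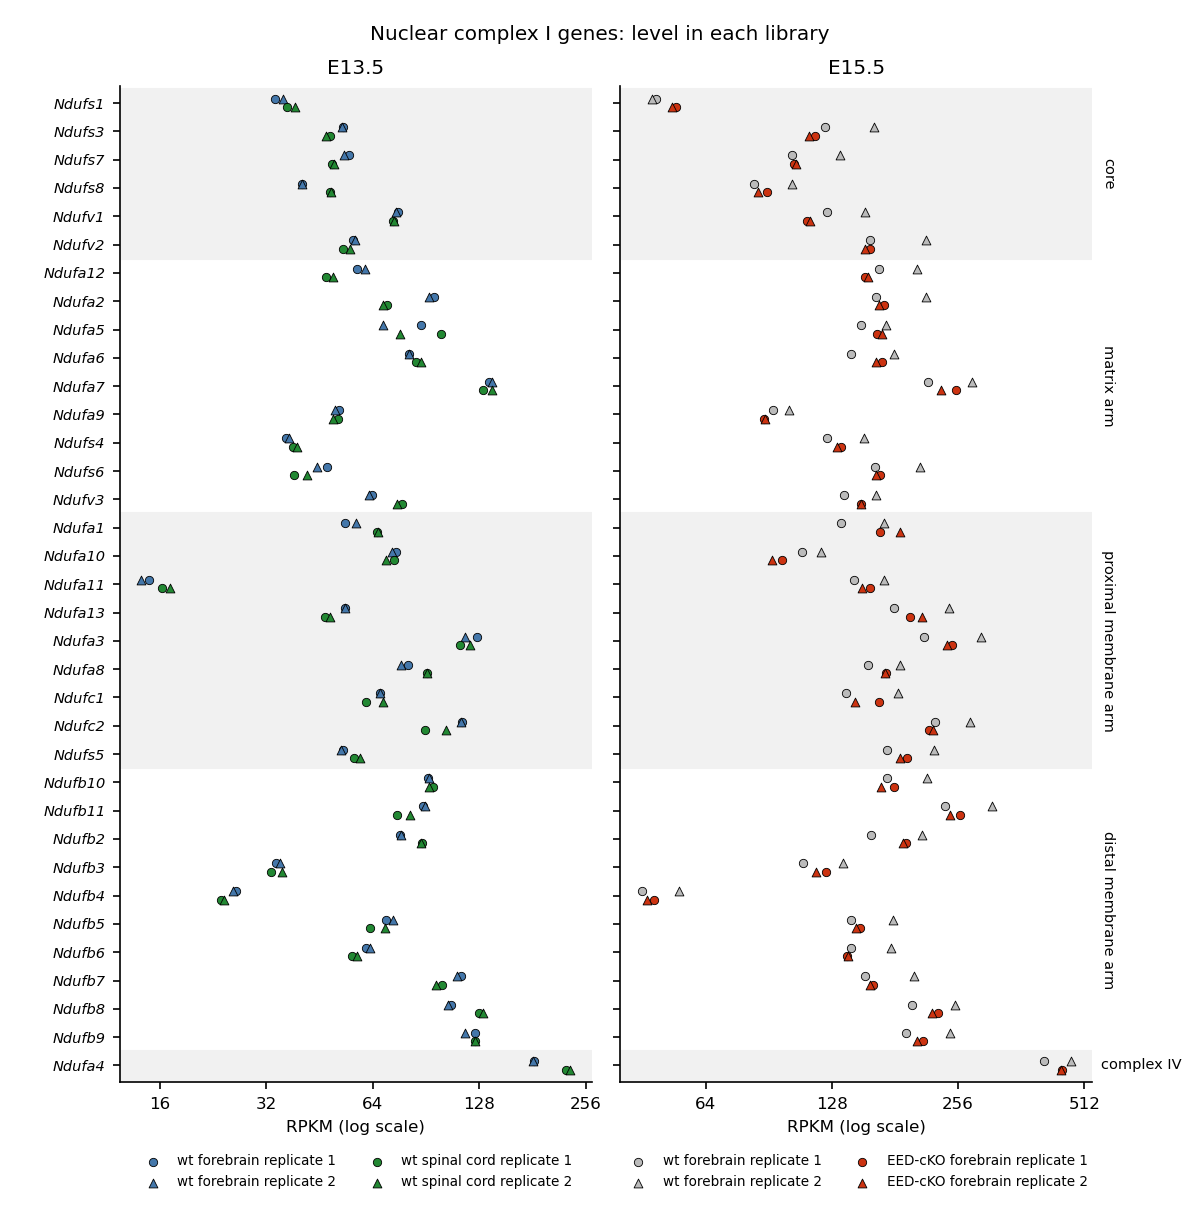
RPKM of 35 of the 36 nuclear complex I genes in each library (log axis), by role in the complex, at E13.5 (left) and E15.5 (right). Circles are replicate 1 and triangles replicate 2. At E15.5 the grey wt triangles stand to the right of the grey circles except for Ndufs1, and the red EED-cKO points lie mostly between them.

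At E15.5, EED-cKO forebrain had 2 of the 36 genes lower than wt and 0 higher (limma, adjusted p under 0.05, over 17022 genes). The 2 were Ndufv1, the core subunit that binds NADH and the flavin, and Ndufa10, an accessory subunit of the membrane arm. Of all tested genes, 30.2% were called higher and 16.7% lower. At an unadjusted p under 0.05 there were 5 complex I genes (13.9%), against 54.4% of all tested genes. The median log2 change over the 36 was -0.07, with a range of -0.30 to 0.22, against a median of 0.08 over all genes. The change over all genes also differed by transcript length: its median was 0.0 up to 800 bases and -0.01 from there to 1500 bases, the classes that hold 35 of the 36 genes, and 0.31 above 6000 bases. In the same 2 short classes the complex I medians were -0.03 and -0.15. Changes were negative for 27 and positive for 9, but this direction depended on the scaling: 34 were negative after median ratio scaling (median -0.19), and 19 were positive after quantile normalization (median 0.05). These rescalings moved the median of all genes from 0.08 to -0.01 and -0.05, and the share of calls that were higher from 64.5% to 48.8% and 45.1%.

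The genotype result depended on which wt library it was set against. Both EED-cKO values lay between the 2 wt values for 24 genes, wt replicate 2 was above both EED-cKO values for 34, and wt replicate 1 was below both for 26. EED-cKO lay wholly below wt for 9 genes and wholly above for 1, Ndufs1, where the shares over all genes were 27.6% and 42.6%. Without wt replicate 1, 26 complex I genes were called lower and 1 higher, with a median of -0.24 (all genes: 20.9% lower, 35.6% higher). Without wt replicate 2, 8 were called higher and 2 lower, with a median of 0.09 (all genes: 26.2% higher, 15.9% lower). In both of these fits the remaining wt library was assumed to vary like the other groups.

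Among the 7 core subunits, 6 had negative changes. Ndufv1 measured 124.6 and 153.2 RPKM in wt and 111.5 and 113.3 in EED-cKO. Both knockout libraries lay below both wt libraries, and the knockout values were close together. The log2 change was -0.30 (SE 0.0935, limma adjusted p = 0.0367), and it was -0.44 and -0.15 without wt replicate 1 and 2, where the call held. The call was lost without any 1 of the other 6 libraries (adjusted p up to 0.148), under quantile normalization (-0.16, adjusted p = 0.0773), with no filter on low values (0.0779) and with only the 4 E15.5 libraries (0.152). Ndufv1 lies at chr19:4007384-4012806 (GRCm38).

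Ndufv2 and Ndufs3 stood in the same place as Ndufv1 without passing the test. Ndufs3, a subunit of the module that hands electrons to ubiquinone, had 123.2 and 161.6 RPKM in wt and 116.9 and 113.0 in EED-cKO (log2 change -0.29, SE 0.116, adjusted p = 0.0751). Ndufv2, the iron-sulfur partner of Ndufv1, had 158.0 and 214.4 in wt and 157.7 and 153.7 in EED-cKO (-0.24, adjusted p = 0.166). For both, the groups did not overlap, but wt replicate 1 was close to the knockout values. Ndufs7 and Ndufs8, also on the ubiquinone side, changed by -0.17 (adjusted p = 0.261) and -0.08 (adjusted p = 0.51) and overlapped with wt. Ndufs1, which carries several iron-sulfur clusters, went the other way, with 48.6 and 47.6 in wt and 54.4 and 53.1 in EED-cKO (0.16, SE 0.0584, adjusted p = 0.0622). Ndufs1 was the 1 complex I gene with the wt libraries close together and both knockout libraries above them.

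Of the 9 accessory subunits of the matrix arm, 0 were called, and the median change was -0.05. The lowest was Ndufa12, whose relative Ndufaf2 holds its place during assembly, with 165.5 and 204.7 RPKM in wt and 153.9 and 156.4 in EED-cKO (-0.25, SE 0.0986, adjusted p = 0.0792). Its groups did not overlap. Ndufa9, which helps hold the matrix arm to the membrane arm, had 92.8 and 101.4 in wt and 88.3 and 88.7 in EED-cKO (-0.13, adjusted p = 0.121). Ndufs4, a subunit whose loss in mice is a model of Leigh syndrome, had 124.9 and 152.7 in wt and 134.7 and 131.3 in EED-cKO (-0.05, adjusted p = 0.666), with both knockout values inside the wt range. Ndufa2, Ndufa5, Ndufa6, Ndufa7, Ndufs6 and Ndufv3 changed by between -0.15 and 0.05 and overlapped with wt.

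Of the 9 accessory subunits of the proximal membrane arm, 1 was called, Ndufa10. It measured 108.8 and 120.7 RPKM in wt and 97.1 and 92.1 in EED-cKO. All knockout values lay below all wt values. The log2 change was -0.27 (SE 0.0697, adjusted p = 0.0165). It passed the test after either rescaling and without either wt library (-0.35 and -0.20), but not without EED-cKO replicate 2 (-0.24, adjusted p = 0.103) or with the 4 E15.5 libraries alone (adjusted p = 0.0753). Ndufa10 lies at chr1:92439010-92473860 (GRCm38), with no protein-coding gene overlapping it on the opposite strand. Ndufa1, a small X-linked subunit, had the highest change of the 36, with 134.4 and 170.1 in wt and 166.3 and 186.0 in EED-cKO (0.22, SE 0.114, adjusted p = 0.161), and its groups overlapped. Ndufc2 was at -0.17 and did not overlap, while Ndufa3, Ndufa8, Ndufa11, Ndufa13, Ndufc1 and Ndufs5 lay between -0.06 and 0.01 and overlapped.

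Of the 10 accessory subunits of the distal membrane arm, the Ndufb genes, 0 were called, and changes ran from -0.19 to 0.06. Ndufb6 was the lowest, with 142.5 and 177.1 RPKM in wt and 139.0 and 139.6 in EED-cKO (-0.19, adjusted p = 0.156), and it was the 1 gene of the 10 whose groups did not overlap. Ndufb11, an X-linked gene, had 238.1 and 308.0 in wt and 259.3 and 245.6 in EED-cKO (-0.10, adjusted p = 0.515). Ndufa4 had 410.7 and 475.0 in wt and 454.3 and 450.5 in EED-cKO (0.03, adjusted p = 0.757). In both genes the knockout values fell between the wt values.

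**Figure D3:**
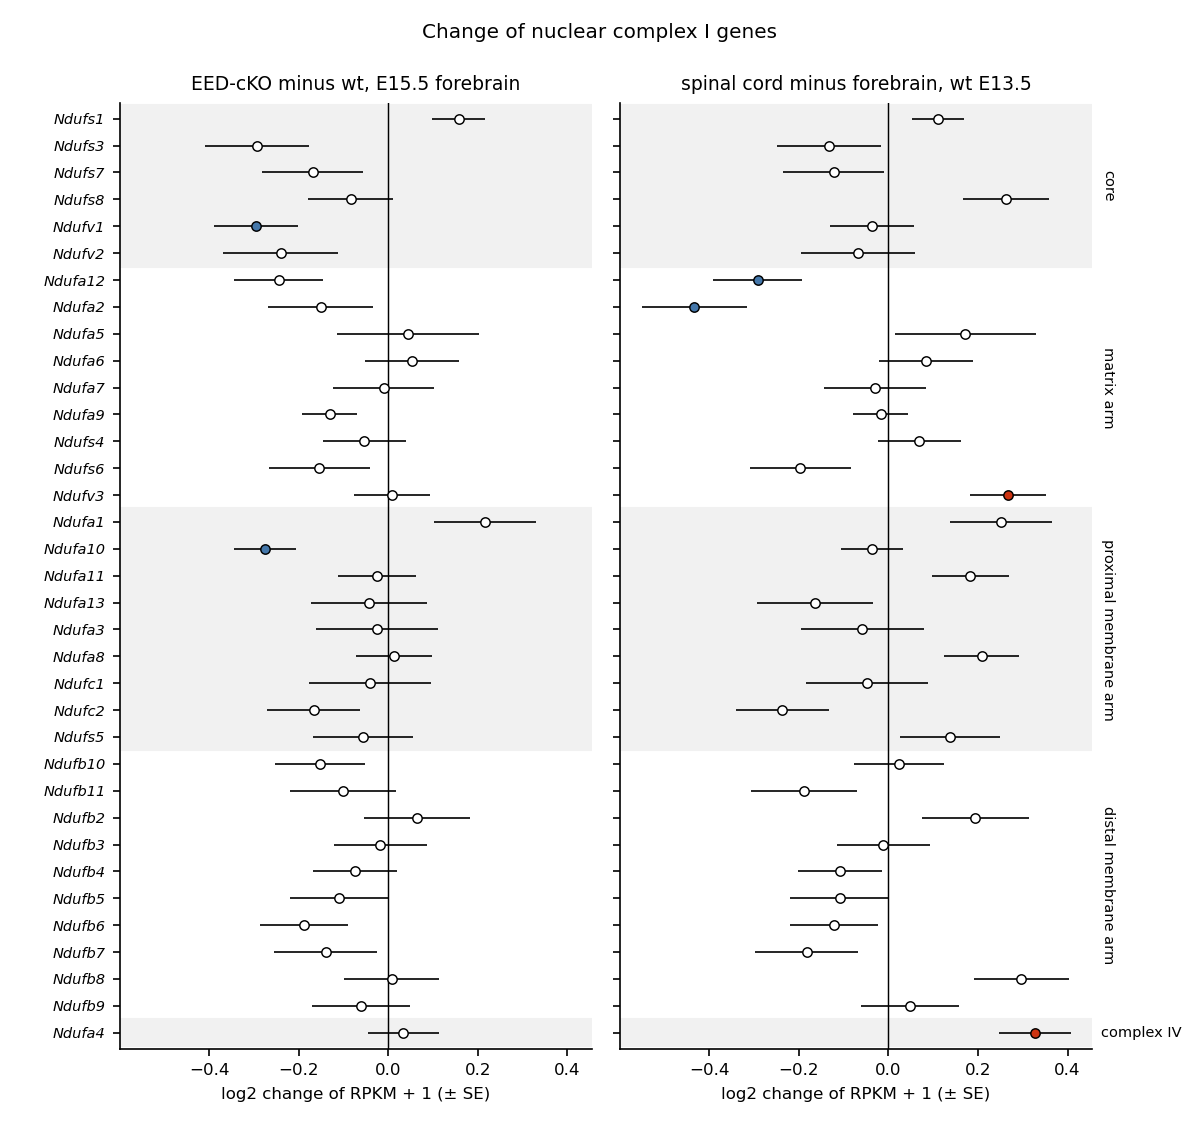
Log2 change of 35 of the 36 nuclear complex I genes with its standard error, EED-cKO against wt forebrain at E15.5 (left) and spinal cord against forebrain at E13.5 (right). Filled points passed the test (blue lower, red higher), open points did not. At left most points lie left of 0 (27 of all 36 genes, against 17 under quantile normalization), and at right the 4 filled points lie on both sides.

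In wt embryos at E13.5, 2 of the 36 genes were higher in spinal cord than in forebrain and 2 were lower. Ndufa4 and Ndufv3, an accessory subunit of the NADH-oxidizing module, were higher, and Ndufa2 and Ndufa12, accessory subunits of the matrix arm, were lower. Of all tested genes, 21.8% were called higher and 23.9% lower, and 7 complex I genes (19.4%) had an unadjusted p under 0.05, against 53% of all tested genes. The median change of the 36 was -0.03 (all genes 0.00), with 15 positive and 21 negative and a range of -0.43 to 0.33. Quantile normalization moved the median to 0.06 and the counts to 11 higher and 2 lower. The groups did not overlap for 28 genes, 13 higher and 15 lower, where the shares over all genes were 37% and 39.3%.

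Ndufa2 had 95.6 and 92.1 RPKM in forebrain and 70.2 and 68.3 in spinal cord. The tissues did not overlap and the replicates lay within a few RPKM. This was the largest change of the 36 in size (-0.43, SE 0.118, adjusted p = 0.0211). The Ndufa2 call was lost with no filter on low values. Ndufa12 had 57.8 and 60.8 in forebrain and 47.2 and 49.3 in spinal cord, again without overlap (-0.29, SE 0.0986, adjusted p = 0.0467). This call was lost with no filter on low values (adjusted p = 0.108), with median ratio scaling (0.0543) and without the trend in limma (0.0615). It lies at chr10:94198720-94221443 (GRCm38).

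Ndufa4 had 182.5 and 181.2 RPKM in forebrain and 225.1 and 231.6 in spinal cord. Both spinal cord libraries lay above both forebrain libraries (0.33, SE 0.0797, adjusted p = 0.0136). Ndufv3 had 63.8 and 62.4 in forebrain and 77.2 and 75.1 in spinal cord, with no overlap (0.27, SE 0.0854, adjusted p = 0.0384). The Ndufv3 call was lost with no filter on low values and with median ratio scaling. It was also lost with a block for the replicate number and without the trend in limma. Leaving out 1 library at a time kept Ndufa2, Ndufa12 and Ndufv3 in 2 of 8 fits, those without a wt E15.5 library, and Ndufa4 in 4 of 8, with every direction the same. Ndufa4 lies at chr6:11900292-11907497, head to head with Phf14, and Ndufv3 at chr17:31520115-31531331, head to head with Wdr4 (GRCm38).

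The E13.5 replicates were closer together than the wt E15.5 replicates whose spread entered the same fit. With only the 4 E13.5 libraries, the median standard error of the 36 genes was 0.0308 rather than 0.105, and 16 were called, 8 higher and 8 lower (all genes: 23.8% higher, 26.6% lower). The 8 higher were Ndufs8 (core), Ndufv3 (matrix arm), Ndufa1, Ndufa8 and Ndufs5 (proximal membrane arm), Ndufb2 and Ndufb8 (distal membrane arm) and Ndufa4. The 8 lower were Ndufs3 and Ndufs7 (core), Ndufa2 and Ndufa12 (matrix arm), Ndufa13 (proximal membrane arm), and Ndufb4, Ndufb6 and Ndufb7 (distal membrane arm). Each of the 4 complex I roles thus held genes of both directions, and their changes ran from -0.43 to 0.33.

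Ndufb8 and Ndufs8 were called in that fit but not in the main fit of all 8 libraries. Ndufb8 had 106.3 and 104.4 RPKM in forebrain and 128.0 and 131.4 in spinal cord (0.30, SE 0.106, adjusted p = 0.0557 with all 8 libraries). Ndufs8, an iron-sulfur subunit of the core, had 40.4 and 40.5 in forebrain and 48.6 and 48.9 in spinal cord (0.26, adjusted p = 0.0596). Both stood clear of overlap. Ndufc2 was called in neither fit, with 114.4 and 113.4 in forebrain and 90.0 and 103.4 in spinal cord (-0.24, adjusted p = 0.104), and its spinal cord libraries differed from each other. Ndufa5 differed more between replicates than between tissues, with 87.5 and 68.2 in forebrain and 99.7 and 76.2 in spinal cord, so that replicate 1 was the higher in both.

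The genes with the shared motifs showed no common change that passed the test. With AAGATGGCG, the changes in EED-cKO and in spinal cord were -0.13 and -0.02 for Ndufa9, -0.04 and -0.05 for Ndufc1, -0.05 and 0.07 for Ndufs4, -0.15 and -0.20 for Ndufs6, and -0.17 and -0.12 for Ndufs7. With GCGCATGC they were 0.05 and 0.08 for Ndufa6, 0.01 and 0.21 for Ndufa8, and -0.03 and 0.18 for Ndufa11. None of these 8 was called in either comparison with all 8 libraries.

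The 2 comparisons share no library, although they share one fit. Across the 36 genes, the change in EED-cKO and the change in spinal cord correlated with r = 0.644 (rho 0.699), against 0.382 (rho 0.365) across all tested genes. Genes are not independent replicates, so these correlations are a description across genes. Ndufa1 and Ndufs1 were among the positive genes in both, and Ndufa12 and Ndufc2 among the negative. Ndufa10 and Ndufv1, lower in EED-cKO, were both at -0.04 in spinal cord.

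The membrane arm core is encoded by mitochondrial DNA. In EED-cKO 5 of its 7 genes rose and 0 fell (all genes: 30.2% higher, 16.7% lower). Their median log2 change was 0.78, with a range of 0.14 to 1.0. ND5, a proton-pumping subunit, had 497.5 and 369.1 RPKM in wt and 842.3 and 870.1 in EED-cKO (1.0, SE 0.138, adjusted p = 0.00137). ND6 had 487.2 and 418.0 in wt and 901.7 and 869.2 in EED-cKO (0.97, SE 0.117, adjusted p = 0.000786). In both, the lowest knockout library was well above the highest wt library.

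ND4, a second pumping subunit, had 1179.9 and 899.1 RPKM in wt and 1857.7 and 1695 in EED-cKO (0.78, adjusted p = 0.00326), and ND4L, read from the same messenger RNA, changed by 0.80 (adjusted p = 0.0106). ND2 changed by 0.59 (adjusted p = 0.00199). ND1, next to the ubiquinone site, had 1653.5 and 1589.4 in wt and 2015.6 and 1856.4 in EED-cKO, above wt in both libraries but not called (0.25, adjusted p = 0.0638). ND3 overlapped, with 706.2 and 881.9 in wt and 927.9 and 814.1 in EED-cKO (0.14, adjusted p = 0.385). All 5 calls held under either rescaling, and the ND5 change ranged from 0.78 without wt replicate 2 to 1.21 without wt replicate 1. With only the 4 E15.5 libraries, 3 of the 5 held, and ND4 (adjusted p = 0.0623) and ND4L (0.0989) did not. ND6 is encoded on the strand opposite to ND5, and unstranded reads do not separate them where they overlap.

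The ratio of the summed mitochondrially encoded to the summed nuclear complex I values was 1.12 and 0.779 in wt at E15.5 and 1.51 and 1.43 in EED-cKO. The wt libraries differed from each other by about as much as the higher of them differed from the knockout. At E13.5 the ratio was 1.56 and 1.65 in forebrain and 1.76 and 1.87 in spinal cord. There, 0 of the 7 genes were called (all genes: 21.8% higher, 23.9% lower), all 7 changes were positive, and the median was 0.24. Of the other proteins of mitochondrial DNA, looked up after these values were seen, CYTB, COX1 and COX2 were also called higher in EED-cKO (0.63, 0.61 and 0.43), while COX3, ATP6 and ATP8 changed by 0.13, 0.24 and 0.26 without a call.

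**Figure D4:**
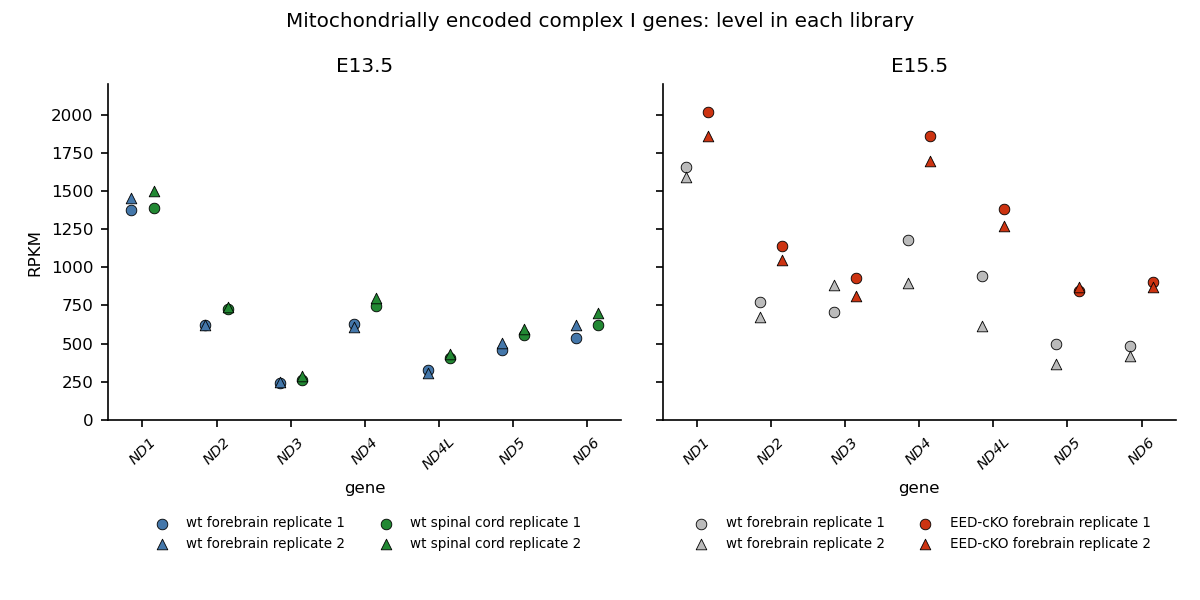
RPKM of the 7 mitochondrially encoded complex I genes in each library at E13.5 (left) and E15.5 (right). Circles are replicate 1 and triangles replicate 2. At E15.5 the red EED-cKO points stand above both grey wt points for 6 of 7 genes, with ND3 the exception, and at E13.5 the tissues lie close together.

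Complex I assembly factors build the complex and are not part of it. In EED-cKO 5 of 16 fell and 0 rose (all genes: 16.7% lower, 30.2% higher). The median change was -0.14, and it was negative under both rescalings (-0.26 and -0.17). Without wt replicate 2, 3 were lower and 1 higher, and with the 4 E15.5 libraries alone 2 were lower. Ecsit had 38.2 and 40.9 RPKM in wt and 28.4 and 27.1 in EED-cKO (-0.50, adjusted p = 0.0028). Ndufaf2 had 45.4 and 58.1 in wt and 36.8 and 36.4 in EED-cKO (-0.48, adjusted p = 0.0107). Timmdc1 (-0.29), Acad9 (-0.28) and Tmem70 (-0.27) were the others. EED-cKO lay wholly below wt for 8 of the 16 factors, these 5 among them, and wholly above for 2. The shares over all genes were 27.6% and 42.6%. Ecsit and Acad9 belong to the complex that assembles the membrane arm, with Timmdc1 a further factor of that arm.

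In spinal cord, 4 of the 16 assembly factors were lower than in forebrain and 1 was higher (all genes: 23.9% lower, 21.8% higher). Their median change was -0.09. Nubpl, which delivers iron-sulfur clusters to complex I, had 4.2 and 5.0 RPKM in forebrain and 2.3 and 1.9 in spinal cord (-0.85, adjusted p = 0.00114), without overlap. Ndufaf2 had 28.2 and 29.6 in forebrain and 19.4 and 20.1 in spinal cord (-0.53, adjusted p = 0.00678). 1810043H04Rik (-0.52) and Tmem70 (-0.48) were the other 2, and the higher one was Tmem126b (0.40). Ndufaf2 and Tmem70 were thus called lower in both comparisons.

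Among the 38 nuclear subunits of complexes II to V, 1 fell in EED-cKO, Cox5a of complex IV (-0.30, adjusted p = 0.0384), and 0 rose. For all genes the shares were 16.7% lower and 30.2% higher. The Cox5a call held in 1 of 8 fits without 1 library, and was lost under quantile normalization (-0.11, adjusted p = 0.169), with no filter (0.078) and with only the 4 E15.5 libraries (0.155). The median was -0.08 and, as for complex I, turned to 0.05 under quantile normalization. In spinal cord 1 rose, Atp5g1 (0.33, adjusted p = 0.015), and 3 fell (all genes: 21.8% higher, 23.9% lower). The 3 were Sdha (-0.30), the flavoprotein of complex II, Uqcr10 (-0.31) of complex III, and Atp5g2 (-0.54) of ATP synthase. The Uqcr10 call (adjusted p = 0.0445) held in 2 of 8 fits without 1 library. Atp5g1 and Atp5g2 encode the same mature ring protein of ATP synthase. Atp5g1 had 44.7 and 41.2 RPKM in forebrain and 55.4 and 52.9 in spinal cord, and Atp5g2 had 61.3 and 63.5 in forebrain and 43.1 and 42.3 in spinal cord.

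Among 13 regulators of mitochondrial gene expression, 7 fell and 2 rose in EED-cKO (all genes: 16.7% lower, 30.2% higher). Ppargc1a, the coactivator PGC-1alpha, had 5.4 and 4.0 RPKM in wt and 12 and 10.5 in EED-cKO (1.11, adjusted p = 0.00109), and Ppargc1b rose by 0.47. Peo1, the mitochondrial DNA helicase Twinkle, had 14.5 and 13.4 in wt and 9.1 and 9.1 in EED-cKO (-0.56, adjusted p = 0.00126), and Tfb2m, a mitochondrial transcription factor, fell by 0.55. The genes of the factors whose motifs were searched, named for that reason, changed by -0.41 (Nrf1, adjusted p = 0.00264), -0.19 (Yy1, adjusted p = 0.038) and 0.02 (Gabpa, adjusted p = 0.852).

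In spinal cord 8 of the 13 regulators were lower and 2 higher (all genes: 23.9% lower, 21.8% higher). Nrf1 had 23.3 and 24.5 RPKM in forebrain and 14.3 and 15.5 in spinal cord (-0.65, adjusted p = 0.000278). Gabpa had 23.5 and 24.6 in forebrain and 15.5 and 16.7 in spinal cord (-0.55, adjusted p = 0.00059). Ppargc1a was the higher in spinal cord by 0.71 and Tfam, which packages mitochondrial DNA, the lower by a log2 change of -0.52. The complex I genes had a median of -0.03 in the same comparison.

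Glycolytic enzymes went in both directions. In EED-cKO 6 of 17 rose and 2 fell (all genes: 30.2% higher, 16.7% lower), a balance that median ratio scaling turned to 2 and 6. The same scaling moved the counts over all genes from 5149 higher and 2838 lower to 4043 and 4240. Pfkp changed by 0.78, the neuronal enolase Eno2 by 0.58, and Hk1 and Aldoa by 0.34 each, and the 2 that fell were Gapdh (-0.28) and Pgk1 (-0.25). In spinal cord 3 of 17 were higher, Pfkp (2.04), Eno2 (1.84) and Hk1 (0.86), and 8 were lower, among them Hk2 (-1.70) and Ldha (-1.22). For all genes the shares there were 21.8% higher and 23.9% lower. The complex I changes in that comparison stayed within -0.43 and 0.33.

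**Figure D5:**
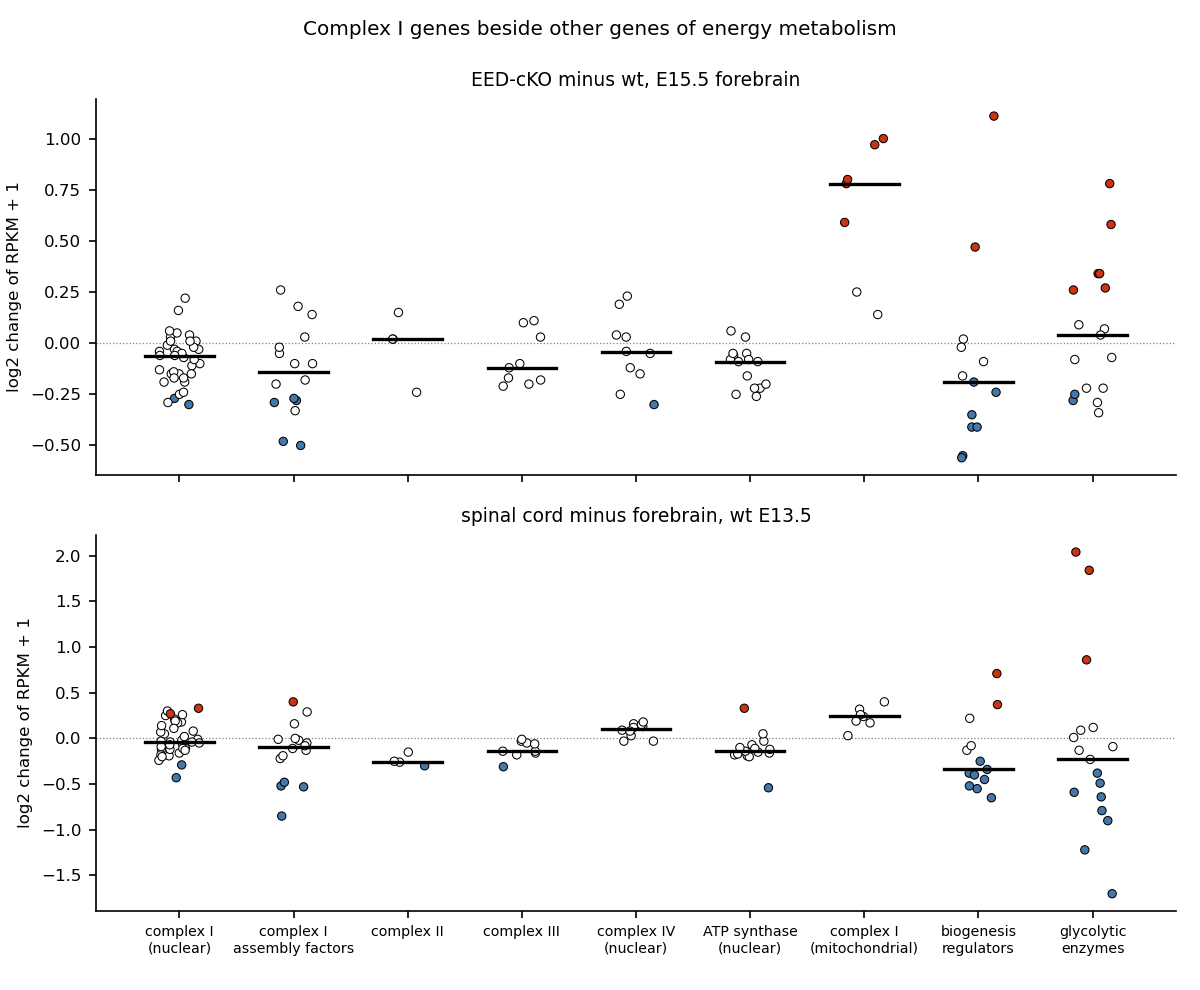
Log2 change of every gene of each list, EED-cKO against wt at E15.5 (top) and spinal cord against forebrain at E13.5 (bottom), on separate vertical scales. Filled points passed the test (red higher, blue lower), and bars are medians. Nuclear complex I genes lie between -0.30 and 0.22 at top, a range whose centre moved from -0.07 to 0.05 under quantile normalization, and the mitochondrially encoded genes have a median of 0.78.

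Markers of other cells differed between the same groups. For scale, 30.2% of all tested genes were called higher and 16.7% lower in EED-cKO, and 21.8% and 23.9% in spinal cord. In EED-cKO, 6 of 6 mesenchyme markers were called higher (summed 678.4 and 845.7 RPKM, against 223.2 and 166.9 in wt), 5 of 5 endothelial markers (226.4 and 230.3, against 157.1 and 151.3) and 4 of 5 microglia markers (92.3 and 103.1, against 52.6 and 58.6), with no marker of these lists at 0. The endothelial calls fell to 3 of 5 with median ratio scaling and to 3 of 5 with only the 4 E15.5 libraries. Of 5 markers of dividing cells, 4 were lower (83.5 and 91.7, against 147.7 and 157.3), and 3 with only the 4 E15.5 libraries. The neuron markers (3337 and 3480, against 4272 and 4440) had 2 of 7 called higher and 2 lower. Neural progenitor markers had 2 of 6 higher and 2 lower, and red cell markers 1 of 7 higher and 1 lower. Skeletal muscle markers summed to 82.4 in EED-cKO replicate 2 and to at most 4.8 in the other E15.5 libraries. In spinal cord at E13.5, 7 of 7 neuron markers were higher (1998 and 2060, against 1301 and 1439 in forebrain), 5 of 5 markers of dividing cells were lower (51.2 and 56.4, against 257.8 and 306.2), and 6 of 7 red cell markers were lower, of which 0 were called with only the 4 E13.5 libraries. In spinal cord 4 of 6 neural progenitor markers were lower and 1 higher, while their sum was higher (1522 and 1538, against 1389 and 1415). Also higher were 4 of 6 mesenchyme markers (383.6 and 415.8, against 230.6 and 239.2) and 1 of 5 endothelial markers. Microglia markers were higher for 3 of 5 (25.6 and 31.8, against 18.2 and 22.1), and for 1 of 5 with only the 4 libraries. The part of these cell types in the complex I values was not tested.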

How the data were processed

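RNA-seq was compared in 8 libraries (unstranded single-end reads of 50 bases, about 50M reads intended, per the labels' protocols). The authors deposited 1 table of RPKM values, per the file headers, with 36333 rows, rounded to 0.1 RPKM. The builds mm9 and GRCm38 are named in the submitters' processing notes, while the tools for alignment and counting are not given in the sources used here. Depth is therefore unknown and no counting interval was computed. E15.5 columns were matched to the gene names sorted alphabetically, with case and hyphens ignored. Tests used limma 3.58.1 (R 4.3.3) with a trend on log2(RPKM + 1), 4 group means over all 8 libraries (4 residual degrees of freedom), genes at 1 RPKM or more in at least 2 libraries (17022), and Benjamini-Hochberg adjustment over all of them at 0.05. A fold change on this scale understates that of low genes. The script was tested on simulated data. The genes studied, the lists and the tests were chosen with earlier results of these data known. Any complex I gene could be named, except 1 that is counted with the 36 and not reported individually here. From other lists, up to 4 called genes with the largest change were named in each comparison, besides exceptions stated. Of 192 list entries, 190 were matched. Alternatives covered the pseudocount, filter, scaling, libraries fitted, block, prior trend and row order.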

Additional observations from a re-analysis of the deposited data

How the results depend on the processing

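Depth behind each value is unknown, and 2 libraries a group limit every test. The number of nuclear complex I genes called in EED-cKO (0 higher and 2 lower) was 1 and 1 with no filter on low values, 0 and 7 with median ratio scaling, 2 and 1 with quantile normalization, and 0 and 0 with only the 4 libraries compared. It was 5 and 6 in the deposited row order and 4 and 7 with hyphens kept, where names and E15.5 values are paired otherwise than in the restored order. Leaving out 1 library at a time gave 0 to 8 higher and 0 to 26 lower, the extremes being without wt E15.5 replicate 2 and without wt E15.5 replicate 1.

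For spinal cord against forebrain (2 higher and 2 lower), the counts were 1 and 0 with no filter, 1 and 1 with median ratio scaling, 11 and 2 with quantile normalization, 8 and 8 with only the 4 libraries compared, and 1 and 1 without the trend in limma. Leaving out 1 library gave 0 to 9 higher and 0 to 10 lower. The lowest counts arose without an E13.5 library and, for genes called lower, also without an EED-cKO library. The highest counts arose without either wt E15.5 library, which removes the widest spread from the fit.

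The 5 mitochondrially encoded complex I genes called higher in EED-cKO were 3 with only the 4 libraries, 3 in the deposited row order and 3 with hyphens kept. In spinal cord, where 0 were called, the count was 2 with quantile normalization, 3 with only the 4 libraries and up to 4 without 1 library. In the other lists, genes called higher in EED-cKO went from 8 to 4 with median ratio scaling, 3 with the 4 libraries and 19 in the deposited order, and ranged from 2 to 15 without 1 library. Those called lower went from 15 to 33 and 6 in the first 2 of these fits, and ranged from 6 to 44 without 1 library. In spinal cord, 7 higher became 15 with quantile normalization and ranged from 3 to 12 without 1 library, and 23 lower ranged from 18 to 37.

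Without wt E15.5 replicate 1 the EED-cKO change was negative for 34 of the 36 genes and without replicate 2 for 9, and 25 were negative in the first fit and positive in the second. Among the called genes recomputed under every alternative, direction turned only with the row order. In the deposited order and with hyphens kept, Ndufa10 was at 0.17 and 0.38 and ND2 at -0.26 and -0.26. Cox5a was at 0.48 in the deposited order, and Ndufaf2 was at 0.0 in both, which is no direction. If the restored order is right, these are E15.5 values of other genes and not further estimates for the genes named. In each of the 2 orders 22 of the 36 genes were below 1 RPKM in an E15.5 library.

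The replicate numbers are not said to mark shared embryos or days. Deviations of same-numbered libraries correlated with 0.211 at E13.5 and -0.124 at E15.5. With the replicate block, 0 higher and 2 lower were called in EED-cKO and 1 higher and 2 lower in spinal cord.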
